A study of Mus musculus with 30 samples.

Results

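Corticotropin-releasing hormone (CRH) is the hypothalamic peptide that makes corticotropes of the anterior pituitary release ACTH. It binds a receptor coupled to G proteins, raises cAMP and activates protein kinase A, CREB and the MAP kinases. Induction of immediate early genes and of the ACTH precursor gene Pomc belongs to its known actions. AtT-20 is a mouse pituitary tumor line of this lineage and a single line, so its response stands for 1 tumor clone and not for the gland.

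The comparison described here is CRH-treated against untreated AtT-20 cells after 6 h of treatment, on 6 of the 30 arrays of a time course of 1, 3, 6, 12 and 24 h. The members were the 6 arrays whose titles name the 6 h time point. Cells were plated 48 h and deprived of serum 18 h before treatment, in both groups. The treated cells then received 100 nM human/rat CRH in serum-free medium for 6 h, and the untreated cells were harvested at the same time. Both RNAs were hybridized together on a spotted cDNA array, with CRH-treated RNA in Cy3 on arrays 1 to 3 and in Cy5 on arrays 4 to 6.

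The labels call the 6 arrays technical replicates, so the conditions are compared with n = 1 pair of extracts and no test of the CRH effect was possible at 6 h. Calls were therefore made by size: a mean log2 ratio (CRH-treated over untreated) of at least 0.585 (1.5-fold) and 6 arrays of one sign. The limma test over the 6 arrays measures only how precisely the hybridizations compared these extracts. Of the spots with a clone, 14375 exceeded the 10th percentile of either channel on each of the 30 arrays and were tested, and 5608 of them could be given a gene symbol. Erased spots numbered 2200 to 2803 per array and spots at the scanner limit 46 to 102. Precision is limited by the number of arrays. All corticotrope markers with a spot exceeded this percentile (5 of the 8 listed, among them Pomc, Tbx19 and Pitx1), while Crhr1, Pcsk1 and Avpr1b were not represented. However, markers of fibroblasts (5 of 5 with a spot) and leukocytes (2 of 2) and Gh also exceeded it, as did 27.4% to 34.4% of empty spots. This limit is therefore a weak check of cell identity.

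Few transcripts differed by the size rule after 6 h of CRH. The RNA came from whole cultures, so a large change in few cells and a small one in all cells cannot be told apart. In all, 5 spots were higher (0.0348% of the spots tested) and 0 were lower (0%). At the other time points 14 to 23 spots were higher and 3 to 14 lower by the same rule. The SD of the spot means was 0.123 on the log2 scale at 6 h, against 0.159 to 0.18 at the other times. Over the hybridizations, limma called 7 spots higher (0.0487%) and 0 lower (0%) at an adjusted p under 0.05. No spot was called with 1 loess curve an array, with median centring, without the filter on dim spots or without the dye term, and 4 were with normexp background correction. At an unadjusted p under 0.05, 607 spots were higher and 672 lower. Without array 1, 2 or 6 limma called 3, 2 and 2 spots higher, and without array 3, 4 or 5 it called 0. By the size rule 4 to 6 spots were higher with any array left out, and 1 was lower without array 3, 4, 5 or 6.

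The 5 spots represent Pak3, Syt4, Misp3, Zcchc12 and an unnamed expressed sequence tag (EST). Pak3 encodes a p21-activated kinase, an effector of Rac and Cdc42 that is best known from neurons. Its log2 ratio on arrays 1 to 6 was 1.02, 0.92, 1.30, 0.66, 0.56 and 0.29. The mean was 0.79 ± 0.36 (SD, n = 6 arrays), which is 1.73-fold (limma adjusted p = 0.00826 over hybridizations). All arrays were above 0, and arrays 1 to 3 lay above the other 3. The EST, on spot 936, had 1.29, 1.22, 1.34, 0.25, 0.50 and 0.15, with a mean of 0.79 ± 0.55 (limma adjusted p = 0.00707). In it the orientations were set furthest apart among the 5 spots, with means of 1.28 (treated RNA in Cy3) and 0.30 (in Cy5).

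Syt4, a synaptotagmin of secretory vesicles, had log2 ratios of 0.51, 1.08, 1.06, 0.27, 0.41 and 0.61 on spot 6751. The mean was 0.65 ± 0.34 (SD, n = 6 arrays), or 1.57-fold (limma adjusted p = 0.0452). Syt4 was represented by another 2 spots. Spot 15969 had a mean of 0.43 ± 0.44, with 4 of 6 arrays above 0, whereas spot 12034 had -0.06 ± 0.20. Hence the spots of this gene did not give the same value, and which part of the transcript each clone covers is not given in the sources used here.

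Misp3, a member of the MISP family of actin-associated proteins that the file names as a RIKEN clone, had 0.68, 0.93, 0.91, 0.70, 0.27 and 0.44. The mean was 0.65 ± 0.26 (SD, n = 6 arrays; limma adjusted p = 0.0303), and the 2 orientations overlapped. Zcchc12, a zinc finger protein known as a transcriptional coactivator in BMP signaling, had 0.54, 0.94, 0.92, 0.28, 0.37 and 0.62. Its mean was 0.61 ± 0.27 (SD, n = 6 arrays), or 1.53-fold (limma adjusted p = 0.0452). It was the lowest of the 5 spots. Syt4 and Zcchc12 were no longer called with 1 loess curve an array (means of 0.62 and 0.54), with median centring (0.57 and 0.58) or with the median of the 6 arrays in place of the mean, and Zcchc12 was not called without array 2, 3 or 6.

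The limma test over hybridizations added a spot each of Ttyh1 and Yipf5, which are named because of this call. Yipf5, a membrane protein of ER to Golgi transport, had the most even values of the called spots: 0.70, 0.51, 0.66, 0.53, 0.53 and 0.49 on spot 5024. The mean of 0.57 ± 0.09 (SD, n = 6 arrays), or 1.49-fold, fell just short of the size rule (limma adjusted p = 0.0303). The other 3 spots of Yipf5 had means of 0.11, 0.05 and -0.05. Ttyh1, of the tweety family of membrane proteins, had 1.06, 1.15 and 1.54 on the Cy3 arrays (1 to 3) but -0.17, 0.09 and -0.10 on the Cy5 arrays (4 to 6) on spot 10217 (limma adjusted p = 0.0452). Its mean of 0.60 thus rests on 1 dye orientation. A further Ttyh1 spot, 2774, had 0.50 with all 6 arrays above 0, and spot 23469 had -0.20.

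**Figure D1:**
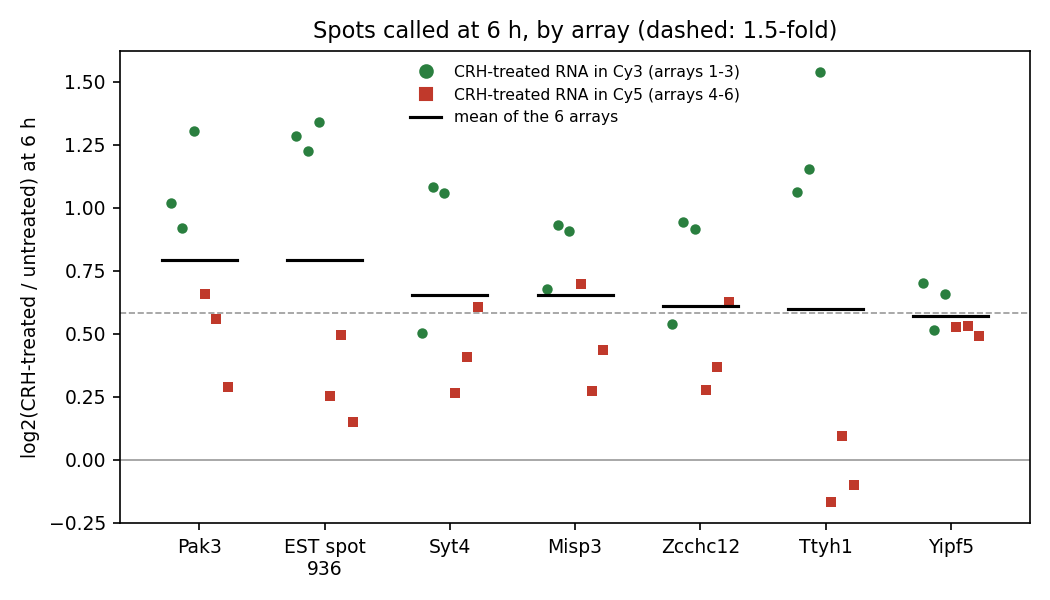
Ratio of treated to untreated RNA at 6 h (log2, y axis) on each of the 6 arrays for the 7 spots called by size or by limma over the hybridizations. Circles mark arrays whose treated RNA was in Cy3 and squares those in Cy5, bars the mean of 6 arrays, and the dashed line 1.5-fold. All values lie above 0 except those of Ttyh1 in Cy5, which range from -0.17 to 0.09.

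Across spots, the 2 dye orientations ran in opposite directions at 6 h. The mean log2 ratios in the 2 orientations correlated with r = -0.64 across the 14375 spots, the most negative value of the 5 time points (-0.543 to -0.289 at the others). Between single arrays r was 0.399 to 0.559 within an orientation and -0.465 to -0.369 between orientations. These are descriptions across spots, which share arrays and extracts. The limma term for dye orientation passed at an adjusted p under 0.05 for 3774 spots (26.3%). The EST, Pak3 and Ttyh1 were among them, whereas Syt4 on spot 6751 was not (limma adjusted p = 0.105). Of the spots with a symbol, Fhdc1, Plxna4os1, Slc51a and Tsr2 had the largest differences towards higher ratios with CRH-treated RNA in Cy5. Fhdc1 had -1.56, -1.65 and -1.35 in Cy3 and 0.90, 0.98 and 0.87 in Cy5. Mis18a, Arfgef1, Cox19 and Spesp1 were at the opposite end, with 0.83, 1.40 and 1.08 in Cy3 and -1.46, -1.60 and -1.32 in Cy5 for Mis18a. The means of Fhdc1 and Mis18a over both orientations were -0.30 and -0.18.

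**Figure D2:**
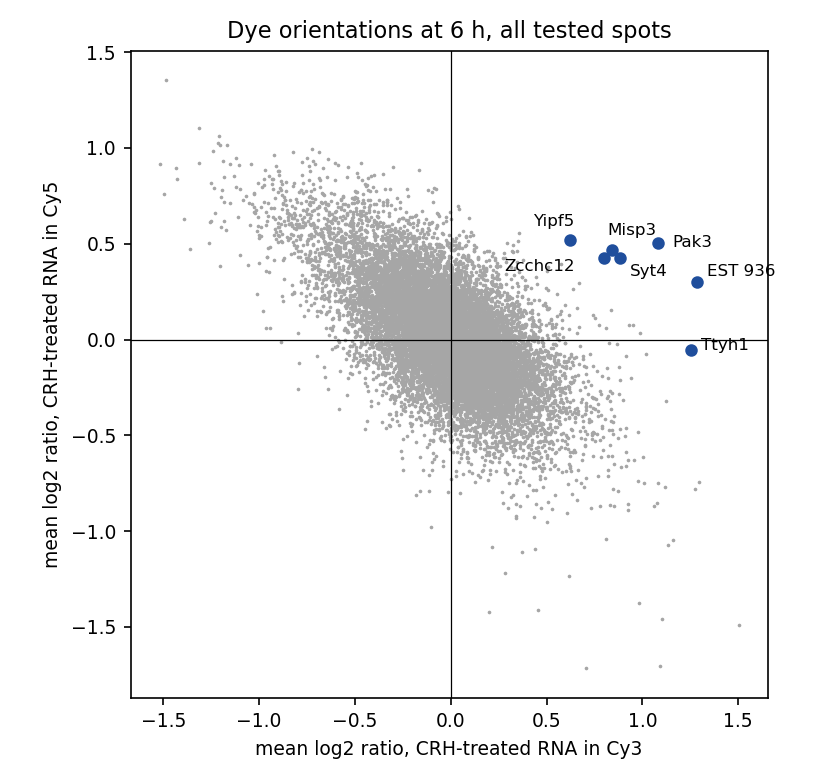
Mean log2 ratio of arrays 4 to 6 (treated RNA in Cy5, y axis) against that of arrays 1 to 3 (Cy3, x axis) at 6 h for the 14375 spots tested, with the 7 called spots in blue. The cloud runs from upper left to lower right (r = -0.64), and 6 of the 7 spots lie in the upper right quadrant.

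The other time points come from other pairs of extracts, so the called spots can be followed there without using the arrays that chose them. All 5 spots were above 0 at 3, 12 and 24 h, and 3 of 5 at 1 h. By the size rule, 0 of 5 passed at 1 h, 3 of 5 at 3 h, 5 of 5 at 12 h and 1 of 5 at 24 h, where 0.104%, 0.16%, 0.118% and 0.0974% of all spots were called higher. At 3 h and 12 h 0.0209% of all spots were lower, at 1 h 0.0974% and at 24 h 0.0487%, and none of the 5 was. Pak3 had mean log2 ratios of -0.07, 0.44, 0.95 and 0.43 at 1, 3, 12 and 24 h. Zcchc12 ran from -0.05 at 1 h to 0.69 at 12 h and was at 0.15 at 24 h, and Misp3 from 0.05 at 1 h to 0.74 at 12 h. Syt4 on spot 6751 was already at 0.43 at 1 h. Thus the 4 named spots among the 5 had their highest mean at 12 h, whereas the Syt4 spot 15969 had 0.70 at 1 h and 0.67 at 12 h.

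With the 4 other time points as units, limma called 4 spots higher (0.0278%) and 1 lower (0.00696%) at an adjusted p under 0.05. The higher ones were the EST, both higher Syt4 spots and spot 16201, which the file names only by an EST accession. Syt4 had a mean over these time points of 0.57 on spot 6751 and 0.58 on spot 15969 (limma adjusted p = 0.0428 for both). Pak3, Misp3 and Zcchc12 had 0.44, 0.51 and 0.31 and did not pass. These calls depend on the time points used: without 1 h 36 spots were higher and 6 lower, without 24 h 1 and 0, and without 3 h or 12 h 0 and 0. Without the filter on dim spots, or with a robust, trended prior, 0 passed in either direction. Rgs4, a regulator that shortens G protein signaling, was the lower one, with -0.52 (limma adjusted p = 0.0454). At 6 h Rgs4 had -0.28 ± 0.26 (SD, n = 6 arrays), below 0 on all 6 arrays, with -0.00, -0.08 and -0.06 in Cy3 and -0.43, -0.49 and -0.59 in Cy5.

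Whether any spot differed at 6 h from the other 4 time points could not be decided by limma on the 5 averages. Only 1 of these averages is from 6 h, so its variation between extracts is unknown. The unadjusted p of this fit was used only to choose spots to name, and their values are given as a description. Among the 13 spots under 0.01 (0.0904%), the largest differences with a symbol were those of Malat1, Uggt1, Ubr7, Lpp and Cxcl14. Cxcl14, a chemokine, had 0.38 at 6 h and -0.14 to -0.05 at the other times. Malat1, a nuclear non-coding RNA, had 0.26 at 6 h against -0.88 to -0.15, but with 0.86, 0.64 and 1.00 in Cy3 and -0.21, -0.38 and -0.37 in Cy5. This spot bears another gene name in the deposited file and is Malat1 by the study's table of clones. Another Malat1 spot, 21560, had 0.145 ± 0.45 (SD, n = 6 arrays) at 6 h, also with lower values in Cy5. Uggt1, named in the file as an expressed sequence, encodes the ER enzyme that marks misfolded glycoproteins for another round of folding. It had the lowest mean of the spots below 0 on all 6 arrays, with -0.996, -0.60, -0.79, -0.34, -0.09 and -0.35 (mean -0.53 ± 0.33, SD, n = 6 arrays; limma adjusted p = 0.0821 over hybridizations). At the other times it was between 0.01 and 0.19.

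**Figure D3:**
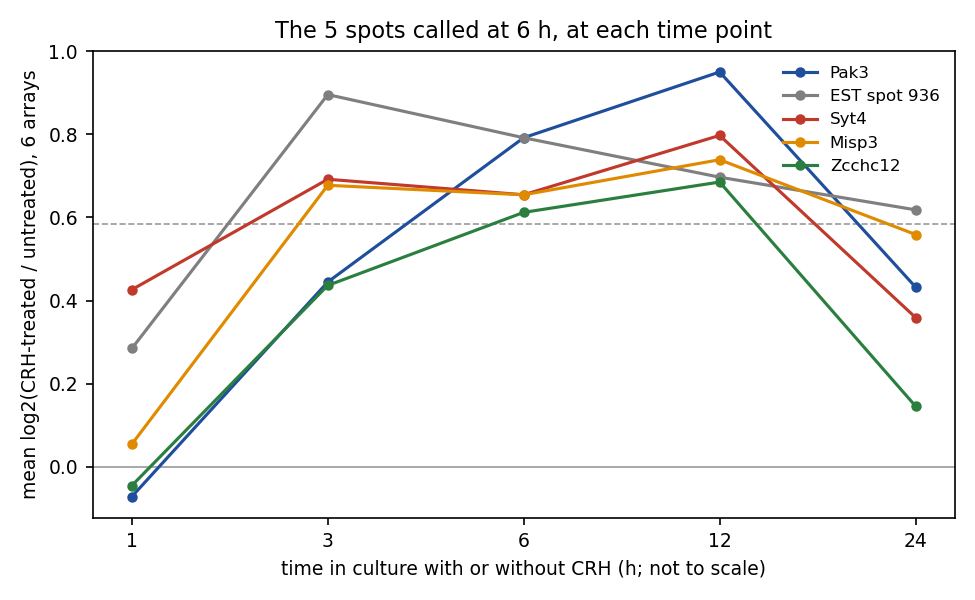
Mean ratio of treated to untreated RNA over 6 arrays (log2, y axis) at 1, 3, 6, 12 and 24 h (x axis, not to scale) for the 5 spots called at 6 h, with the dashed line at 1.5-fold. All 5 spots pass the line at 6 h and 12 h, and at 1 h they lie between -0.07 and 0.43.

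No spot of the lists for CRH signaling, cAMP targets or immediate early genes passed the size rule at 6 h, which 0.0348% of all spots passed as higher, and these counts are near that share. Of the 44 spots for receptors, G proteins and the cAMP pathway, 0 passed and the median log2 ratio was 0.01, against 0.00 over all spots tested. The cAMP and CREB target genes had a median of 0.04 over 19 spots, and 0 passed. The highest of them was Odc1, the rate-limiting enzyme of polyamine synthesis, at 0.51 ± 0.51 (SD, n = 6 arrays), with 1.05, 0.79 and 0.96 in Cy3 and -0.13, 0.39 and -0.02 in Cy5. Srm, which makes spermidine, had 0.40 ± 0.27, with 5 of 6 arrays above 0. Of the 18 spots for immediate early genes, 0 passed and 3 were above 0 on all 6 arrays, against 1.27% of all spots. Fosl2, a Fos family member of AP-1, led them with 0.29, 0.83, 0.89, 0.10, 0.65 and 0.14 on spot 18869 (mean 0.48 ± 0.35). The deposited file names this spot B-cell CLL/lymphoma 7C, and it is Fosl2 by the study's table of clones. Its ratio was 1.31 at 1 h and 0.51 at 3 h. The second Fosl2 spot had 0.22 ± 0.32. Myc and Egr3 had -0.22 ± 0.26 and -0.23 ± 0.62.

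Of the 30 spots for corticotrope and secretory granule genes, 1 passed the size rule, against 0.0348% of all spots, and their median was 0.03. The 1 that passed was Syt4 spot 6751, and the other Syt4 spots had 0.43 and -0.06. Pomc, the ACTH precursor, had 0.34, 0.31 and 0.44 in Cy3 and -0.26, -0.50 and -0.49 in Cy5. Its mean was -0.03 ± 0.44 (SD, n = 6 arrays), so the sign followed the dye. Neurod1, a transcription factor of corticotropes that acts on Pomc, had -0.47 ± 0.85 on spot 3014, from -1.40 to 0.36, and -0.19 ± 0.27 on spot 6620.

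Most spots of the list of unfolded protein response and chaperone genes, which also holds cytosolic and mitochondrial chaperones, had small ratios above 0. Chaperones of the endoplasmic reticulum (ER) fold secreted proteins, and their genes are known to rise together in the unfolded protein response. Of the 31 spots of this response and of chaperones, 27 (87.1%) had a mean above 0, against 49.1% of all spots, and their median was 0.09. Their median was above 0 on each of the 6 arrays and was 0.11 in Cy3 and 0.15 in Cy5. No spot passed the size rule, against 0.0348% of all spots as higher. At any size 0 were below 0 on all 6 arrays, against 1.39% of all spots. Above 0 on all 6 arrays were 4 spots, against 1.27% of all spots. These were Creld2, Hspa5, Canx and Calr. Creld2, an ER protein induced by stress, had 0.37, 0.63, 0.08, 0.82, 0.44 and 0.41, with a mean of 0.46 ± 0.25 (SD, n = 6 arrays). Hspa5, the main ER chaperone BiP, had 0.40, 0.49, 0.32, 0.30, 0.18 and 0.15, with a mean of 0.31 ± 0.13. Its mean was 0.52 with 1 loess curve an array and 0.55 with median centring. Calnexin (Canx) had 0.29 ± 0.21 on spot 20656 and 0.11 and 0.10 on its other spots, and calreticulin (Calr) 0.24 ± 0.22. Outside this list, Sec61a1, the pore of the ER translocon, had 0.35 ± 0.18 with all 6 arrays above 0. The limma adjusted p over hybridizations was at least 0.227 for these 5 spots. At 1 h the list had a median of -0.08, and at 3, 12 and 24 h of 0.16, 0.09 and 0.05.

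The list of ER and Golgi transport genes had a median of 0.08 over 64 spots, and 47 of them (73.4%) were above 0, against 49.1% of all spots. Here the orientations differed, with medians of 0.25 in Cy3 and -0.03 in Cy5. Ssr1, a subunit of the translocon-associated complex, had 0.41 ± 0.34 on spot 10676, and 0.29 and 0.09 on its other spots. By the size rule 0 of the 64 spots passed, against 0.0348% of all spots.

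Sterol synthesis genes had the highest median of the 22 lists with loess by print-tip block, but not with median centring. In either dye orientation alone, other lists had higher medians. Their enzymes make cholesterol through mevalonate, and SREBP transcription factors are known to control them together. The median was 0.15 over 27 spots for 20 genes, and 21 spots (77.8%) were above 0. It was 0.24 in Cy3 and -0.01 in Cy5. No spot passed the size rule, against 0.0348% of all spots as higher. The 5 spots above 0 on all 6 arrays, against 1.27% of all spots, included 2 of Cyp51 and 1 each of Hsd17b7 and Fdps. Hsd17b7, a reductase of the late pathway, had 0.44, 0.31, 0.36, 0.26, 0.29 and 0.42, and its mean of 0.35 ± 0.07 (SD, n = 6 arrays) had the smallest spread of these. Cyp51, the lanosterol demethylase, had 0.40 ± 0.31 and 0.33 ± 0.20 on these spots and 0.03 ± 0.28 on spot 11165. Fdps, which makes farnesyl diphosphate, had 0.25 on the spot that was above 0 throughout and 0.06 on the other. Hmgcs1, which makes HMG-CoA, had 1.20, 0.85 and 1.00 in Cy3 but -0.23, 0.04 and -0.04 in Cy5 on spot 6705 (mean 0.47 ± 0.61). Its spot 16977 had 0.40 ± 0.52. Srebf1 had 0.29 ± 1.16, which rests on 2.57 on array 2, and the other arrays were between -0.41 and 0.45. The medians of the list at 1, 3, 12 and 24 h were -0.14, 0.06, 0.17 and -0.12. With median centring in place of loess the 6 h median was 0.0774, below the 0.122 of the chaperone list and the 0.0839 of the transport list.

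**Figure D4:**
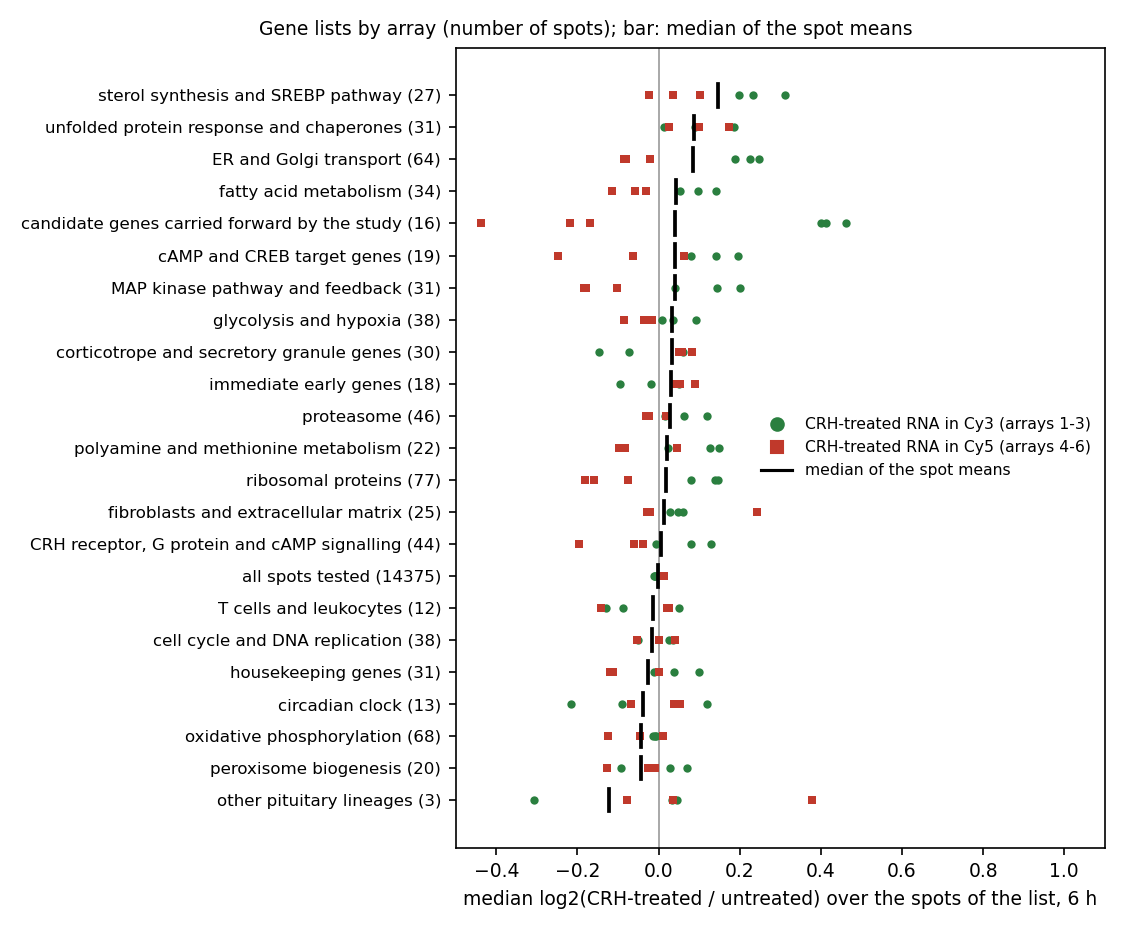
Median ratio of treated to untreated RNA at 6 h (log2, x axis) over the spots of each gene list (y axis, number of spots), by array, with the treated RNA in Cy3 (circles) or Cy5 (squares), with bars for the median of the spot means. With this normalization the sterol list has the highest bar (0.15), the chaperone list lies above 0 on all 6 arrays, and the candidate genes are split by dye (0.45 and -0.26).

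Promoter windows of the called genes were searched for Pak3, Misp3 and Zcchc12. Promoters are shown for Zcchc12, whose window holds a cAMP response element motif, and for the sterol enzymes Hmgcs1, Cyp51 and Hsd17b7, whose choice followed their values. Each is a RefSeq window of 300 bases, from 250 before to 50 after the start of transcription, 5′ to 3′ on the strand of the gene (build GRCm38.p6). Capitals mark the short motif TGACG or its reverse complement CGTCA, and, for SREBP, the sterol motif TCACNCCAC on either strand. The windows are chrX:36195654-36195953 (plus strand) for Zcchc12, chr13:119690101-119690400 (plus) for Hmgcs1, chr5:4104648-4104947 (minus) for Cyp51 and chr1:169969156-169969455 (minus) for Hsd17b7.
Zcchc12: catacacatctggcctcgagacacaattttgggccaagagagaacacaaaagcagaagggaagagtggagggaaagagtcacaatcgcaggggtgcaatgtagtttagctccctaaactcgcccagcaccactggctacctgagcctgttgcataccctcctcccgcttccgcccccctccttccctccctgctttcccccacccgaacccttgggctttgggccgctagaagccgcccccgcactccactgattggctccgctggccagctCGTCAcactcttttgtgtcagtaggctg
Hmgcs1: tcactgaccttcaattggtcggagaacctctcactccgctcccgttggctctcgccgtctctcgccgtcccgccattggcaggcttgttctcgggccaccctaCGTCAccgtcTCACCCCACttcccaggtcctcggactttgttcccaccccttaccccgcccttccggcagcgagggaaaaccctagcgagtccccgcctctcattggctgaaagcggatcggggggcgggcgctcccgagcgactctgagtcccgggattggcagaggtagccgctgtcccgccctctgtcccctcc
Cyp51: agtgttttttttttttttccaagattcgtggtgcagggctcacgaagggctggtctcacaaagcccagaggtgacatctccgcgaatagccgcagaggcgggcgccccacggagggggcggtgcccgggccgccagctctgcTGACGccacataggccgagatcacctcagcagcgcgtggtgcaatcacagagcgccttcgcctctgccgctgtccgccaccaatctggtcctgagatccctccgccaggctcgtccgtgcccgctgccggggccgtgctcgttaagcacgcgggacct
Hsd17b7: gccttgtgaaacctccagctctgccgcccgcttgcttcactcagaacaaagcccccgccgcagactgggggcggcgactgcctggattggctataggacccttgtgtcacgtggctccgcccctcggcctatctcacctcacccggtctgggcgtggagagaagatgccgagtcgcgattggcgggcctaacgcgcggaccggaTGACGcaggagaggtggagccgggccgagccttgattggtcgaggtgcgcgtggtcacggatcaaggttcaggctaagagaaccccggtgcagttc

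The short cAMP motif begins 22 bases after the start in Zcchc12 and 147 and 46 bases before it in Hmgcs1 and Hsd17b7, and between these distances in Cyp51. It is in 20.8% of 32851 mouse promoter windows of this length. The sterol motif, 137 bases before the start of Hmgcs1, is in 1.24% of them. The 3 windows of Pak3 and the window of Misp3 hold neither motif, nor the AP-1 motif TGAGTCA or its reverse complement, which is in 5.2% of all windows. A match is a description of these letters and not of binding.

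The 11 genes that the study carried forward were chosen on these samples, and their values at 6 h are no independent evidence. They had 16 spots, of which 0 passed the size rule, against 0.0348% of all spots as higher. Above 0 on all 6 arrays was 1 spot, that of Fosl2, against 1.27% of all spots. The median of the list was 0.45 in Cy3 and -0.26 in Cy5, the widest split of the lists. Acsl4, which activates long-chain fatty acids, had 0.43 ± 0.42 (SD, n = 6 arrays), with 5 of 6 arrays above 0. Pex13, of the peroxisomal import machinery, had 0.51, 0.58 and 0.42 in Cy3 and -1.07, -0.93 and -0.86 in Cy5. Nf2, the tumor suppressor merlin, had 0.58, 0.43 and 0.44 in Cy3 and -0.96, -0.73 and -0.61 in Cy5. Loxl3, a lysyl oxidase, had 0.41, 0.22 and 0.32 against -0.57, -0.53 and -0.57. The means of Pex13, Nf2 and Loxl3 were therefore -0.23 ± 0.80, -0.14 ± 0.70 and -0.12 ± 0.48, with signs that followed the dye. Crem, a cAMP-responsive modulator, had -0.16 ± 0.35 on spot 7301, which is not the spot listed by the study. That one, 2781, was erased on some 1 h arrays and so not tested, and at 6 h it had 0.68, 0.78 and 1.15 in Cy3 and -0.42, 0.01 and -0.10 in Cy5 (mean 0.35 ± 0.61). Cd3e had -0.26 ± 0.35, and Pebp1 had 0.05 ± 0.43 on a spot that the deposited file names interleukin 17D. Mat2a had 0.04, -0.09 and -0.11 on its 3 spots.

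Genes with several spots show how far values at 6 h differed between spots of the same gene. The cause of these differences was not tested. Mapk9, which encodes the kinase JNK2, had 0.43 ± 0.25 on spot 2480 and -0.10 to -0.26 on its other 4 spots. Both spots of Sdcbp, the scaffold protein syntenin, were below 0, at -0.48 ± 0.40 and -0.30 ± 0.22. Sdcbp is named here after its values were seen.

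**Figure D5:**
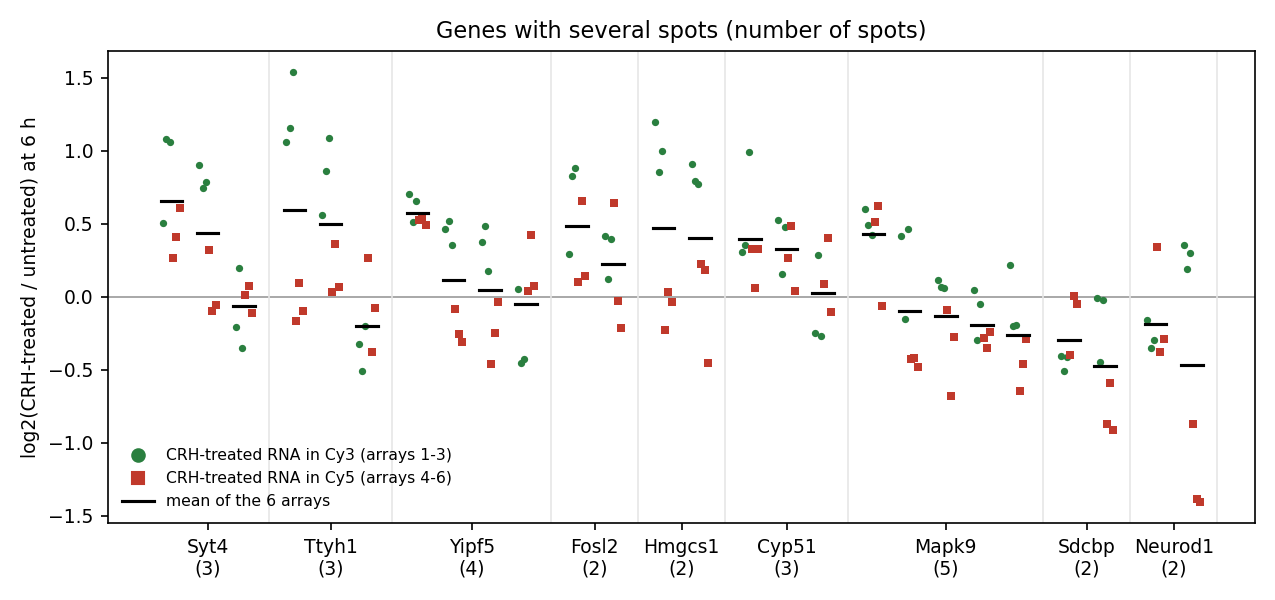
Log2 ratio at 6 h (y axis) on each array for every spot of 9 genes with several spots (x axis, number of spots), with circles and squares for treated RNA in Cy3 and in Cy5 and bars for the mean of 6 arrays. Spots of Syt4 range in mean from -0.06 to 0.65 and those of Mapk9 from -0.26 to 0.43.

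The remaining lists had medians from -0.12 (other pituitary lineages, 3 spots) to 0.04 (fatty acid and MAP kinase genes). Of their spots 0 passed the size rule, which 0.0348% of all spots passed as higher. Oxidative phosphorylation genes had -0.04, with 38.2% of 68 spots above 0. Cox7a2l, which takes part in respiratory supercomplexes, had -0.36 ± 0.12 (SD, n = 6 arrays) on spot 4880, below 0 on all 6 arrays, and 0.03 ± 0.22 on spot 17739. The markers of fibroblasts and matrix had a median of 0.01 and those of T cells and leukocytes -0.01. Ribosomal proteins had 0.02, with 0.12 in Cy3 and -0.14 in Cy5, and housekeeping genes -0.03.

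The 3 h arrays were quantified on the same day as the 6 h arrays. By limma over these 12 hybridizations, which compares 2 pairs of extracts, 1 spot was higher (0.00696%) and 4 were lower (0.0278%) at 6 h than at 3 h. The higher spot was at the scanner limit in both channels on all 12 arrays, so its ratio is not interpretable and is not given. With spots at this limit left out, 3 spots differed. Mpp7, a scaffold protein of cell junctions, had the largest difference, with 1.18 at 3 h and 0.01 ± 0.14 (SD, n = 6 arrays) at 6 h (limma adjusted p = 0.000378). None of the 5 spots called at 6 h was among them. With any of the 12 arrays left out, the count of differing spots was between 1 and 8.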

How the data were processed

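The data are 2-color spotted cDNA arrays of AtT-20 cells. The deposited files of the authors hold, per array, the spot intensity and the local surroundings in both channels (the columns of the second channel are of the same kind), quantified in QuantArray without background subtraction. The authors also deposited log2 ratios of 12593 spots, made by removal of the lowest 10% of intensities and a loess fit per print-tip block. Here the log2 ratios were computed from the intensities by the same kind of steps (span 0.75, 4 iterations, 48 blocks of 504 spots). Their sign was turned so that they give CRH-treated over untreated RNA. The filter did not keep the same spots: of the 14375 tested here, 11341 are among the 12593 deposited. Across shared spots their r with the deposited table was 0.977 to 0.994. Empty spots (1170) and control spots (192) were left out. The loess step assumes that most spots of a block do not change, and without background subtraction small ratios of dim spots are pulled toward 0.

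Samples were grouped by their titles. Limma 3.58.1 in R 4.3.3 was run over the 6 arrays with dye orientation as a term, over the averages of the 5 time points (each average as a unit, the lone 6 h average assumed to vary like the others) and over the 3 h and 6 h arrays, with Benjamini-Hochberg adjustment over 14375 spots. These fits were run on simulated data with known changes as a check of the code. The simulation held no variance between extracts or time points, so it could not test how the fits deal with such variance. Symbols came from the study's table of clones for 94 spots and from a hand-made map of the deposited names for 437. For 5077 more, rules on systematic names gave a symbol that was looked up among RefSeq symbols and synonyms. The table was used for 6 spots whose deposited name gives another symbol. The members, gene lists and motifs were chosen with earlier results of these data known. Genes were named by a rule: those past the size rule, the study's candidates, up to 4 per list with the largest means, up to 5 in each direction at 6 h against other times, and up to 4 in each direction by dye difference. Alternatives covered filters, normalization, background, the deposited ratios, saturated spots, single arrays, time points, the size rule and the variance model.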

Additional observations from a re-analysis of the deposited data

Results flagged for a closer look

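On 6 named spots and in 1 gene list, 1 of the 6 arrays stood far from the others, by a gap that took most of the whole range (Dixon's criterion). That is 7 of 134 groups (5.22%). The criterion flags about 1 in 20 by chance only where all 6 values vary alike. Here the dye orientations differed on many spots, and many of the named spots were chosen by their values. Whether 7 flags are more or fewer than chance gives therefore cannot be decided. The log2 ratio of Srebf1 was 2.57 on array 2, against -0.41 to 0.45 on the other arrays, and that of Cyp51 on spot 3495 was 0.99 on array 3, against 0.06 to 0.36. Lpp had 0.72 on array 4, against 0.13 to 0.30. Mapk9 on spot 2480 had -0.0662 on array 6, against 0.43 to 0.62, and Srm had -0.13 on array 2, against 0.39 to 0.60. Ubb, a ubiquitin gene, had -0.68 on array 4, against -0.24 to -0.08. The median of the fibroblast and matrix list was 0.24 on array 6, against -0.03 to 0.06.

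Between 3 and 6 h, 5 spots differed by limma over 12 hybridizations. The difference of the log2 ratios, 6 h minus 3 h, was -1.17 for Mpp7 (limma adjusted p = 0.000378). For the spots named in the file as extra cellular link domain-containing 1, lymphocyte antigen 6 complex locus E and Lutheran blood group it was -0.66, -0.66 and -0.67 (limma adjusted p = 0.0297, 0.0221 and 0.041). The remaining spot was at the scanner limit in both channels and has no interpretable ratio. These names were given after the values were seen.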

How the results depend on the processing

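The 5 spots called by size kept a mean above 0 in all 75 alternative values, the lowest being 0.30. Where single arrays were left out or 1 orientation was used alone, this sign was fixed in advance. The size rule had already asked for 6 arrays of one sign. All 5 were called again with the filter on the 6 h arrays only, no filter, normexp, the deposited ratios or saturated spots left out, and 3 of 5 with 1 loess curve an array or median centring. By size, 3 spots were higher with either of these normalizations and with the median of the 6 arrays, and 0 at 2-fold or with 1.5-fold asked of each orientation. The count of lower spots was 4 without a filter, 2 with median centring and 1 with the deposited ratios or without the sign rule. With single arrays left out, 4 to 6 were higher and 0 to 1 lower. Over hybridizations the 7 higher spots became 2 with the 6 h filter, 0 without a filter, 0 with 1 loess curve, 0 with median centring, 4 with normexp, 0 without the dye term, 2 with a robust, trended prior and 0 to 3 without single arrays. The count of lower spots was 0 in each. The dye difference was called for 2235 spots with 1 loess curve and for 2487 to 3097 without single arrays. The correlation of the orientations was -0.526 without a filter, -0.582 with 1 loess curve, -0.716 with median centring, -0.6 with the deposited ratios and -0.62 to -0.586 without single arrays.

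Over the other 4 time points, 0 spots were higher and 0 lower without a filter or with a robust prior, and 0 lower with normexp. Without 1 h 36 and 6 passed, without 3 h or 12 h 0 and 0, and without 24 h 1 and 0. Between 3 and 6 h, the 5 spots became 1 without a filter, with 1 loess curve, with median centring or with the deposited ratios, 3 without saturated spots and 1 to 8 without single arrays. The replicate numbers did not pair the 3 and 6 h arrays: within an orientation same-numbered arrays deviated with r from -0.0207 to 0.0482, and 2 of 6 correlated best with their own number. With the replicate block in place of dye orientation, 1 spot differed. The fit of 6 h against other times has 1 average at 6 h and could not decide under any alternative whether a spot differed. Of 154 list medians, 1 moved by more than the SD between arrays: oxidative phosphorylation had 0.0091 with 1 loess curve. Of 1661 values of 112 named spots, 4 moved by more than this SD and 60 changed sign. Among spots called over hybridizations, Ttyh1 changed sign, to -0.0568 in Cy5 alone. The causes were not tested. A further limit is 1 pair of extracts per time point, which the number of arrays does not change.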
